A study of Mus musculus with 6 samples.

Results

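Pulmonary surfactant is a film of lipid and protein that lowers surface tension at the air-liquid interface of the alveoli. The genes described here encode its 4 proteins (Sftpa1, Sftpb, Sftpc and Sftpd) and the proteins that process, load or recycle it in alveolar type II cells (Abca3, Slc34a2, Lamp3, Napsa, Ctsh and Lpcat1). They were chosen by name as 10 genes. Both they and the gene lists set beside them below were chosen with earlier results of these data known. A member's probe sets were those whose annotation names that gene and no other. By that rule 9 of the 10 genes had values, in 19 probe sets, out of 18193 genes in all. The only probe set for Lamp3 names a second gene too, so Lamp3, a lysosomal membrane protein of lamellar bodies, has no value below.

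The RNA came from whole lungs of mouse embryos at E18.5, late in gestation, hybridised to Affymetrix Mouse430_2 arrays. There were 3 arrays of lungs labelled wild type (WT 1, WT 2, WT 3) and 3 of lungs labelled GATA6 KO (KO 1, KO 2, KO 3). GATA6 is a zinc finger transcription factor of the developing lung epithelium, and the series asks which lung genes depend on it. The labels give no strain, no driver of the deletion, no litter and no number of embryos per array, so the spread between arrays may be partly technical. Gata6 itself, by its brightest probe set, read higher in the arrays labelled KO (11.39 ± 0.19 against 10.60 ± 0.46 log2, SD, n = 3 each). Each KO array lay above every WT array, as for 5.89% of all genes. Whether the probe sets of Gata6 lie in the deleted part is not known here. Every direction below is therefore one between labels that the target gene leaves unchecked. Stations of the fluidics instrument were split unevenly, with WT 1 and WT 2 on station 1 and the other 4 arrays on station 2. The scanner read all arrays labelled WT before those labelled KO, so scan order and label cannot be told apart. In whole lung, fewer type II cells and less RNA per cell cannot be told apart either.

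Type II cells build surfactant stepwise. The hydrophobic proteins SP-B and SP-C are cut from precursors by the proteases napsin A (Napsa) and cathepsin H (Ctsh), while LPCAT1 remakes phosphatidylcholine and ABCA3 pumps it into lamellar bodies, the lysosome-related organelles that store surfactant. The collectins SP-A and SP-D are secreted apart from this route and bind microbes and lipid. Many of these genes carry sites for the epithelial factor NKX2-1 in their promoters, and GATA6 is known as a partner of NKX2-1 on surfactant promoters.

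Promoter windows from RefSeq (build GRCm38.p6) were at hand for 6 of the 10 genes: Sftpa1, Sftpb, Abca3, Slc34a2, Lamp3 and Lpcat1. Each window, 250 bases before to 50 after the start site, was searched on both strands for GATAA (GATA factors), CTCAAG (NKX2-1) and TGTTTA (forkhead factors), motifs that do not overlap one another in the member windows. Sftpa1 and Sftpb are shown because they hold the NKX2-1 letters, and Abca3 because its level differed most between arrays. The 250 bases before the start site are printed 5′ to 3′ on the plus strand, with motif matches in capitals.
Sftpa1, chr14:41131538-41131787: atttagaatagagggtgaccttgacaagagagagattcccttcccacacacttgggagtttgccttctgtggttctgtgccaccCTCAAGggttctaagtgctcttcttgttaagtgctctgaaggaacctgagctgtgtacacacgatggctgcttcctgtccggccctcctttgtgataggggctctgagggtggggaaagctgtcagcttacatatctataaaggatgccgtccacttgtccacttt
Sftpb, chr6:72304360-72304609: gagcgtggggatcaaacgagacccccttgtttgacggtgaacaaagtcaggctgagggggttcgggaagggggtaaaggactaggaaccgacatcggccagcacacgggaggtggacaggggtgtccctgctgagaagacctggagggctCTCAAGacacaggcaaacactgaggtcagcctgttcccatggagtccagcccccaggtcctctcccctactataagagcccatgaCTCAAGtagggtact
Abca3, chr17:24351773-24352022: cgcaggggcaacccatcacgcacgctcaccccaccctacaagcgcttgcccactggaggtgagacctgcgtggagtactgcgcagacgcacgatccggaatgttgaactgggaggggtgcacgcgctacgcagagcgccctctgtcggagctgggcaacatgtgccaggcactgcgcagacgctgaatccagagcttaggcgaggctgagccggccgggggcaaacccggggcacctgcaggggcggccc

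CTCAAG began 166 bases before the start site in Sftpa1, and 100 and 15 bases before it in Sftpb. The same letters stood in 15.9% of all 32851 windows and in 2 of the 6 member windows. TGTTTA was found in 13.4% of all windows and in 1 of the 6, that of Lamp3. GATAA was found in 25.4% of all windows and in 0 of the 6. Only these exact letters were counted, so this does not show that the windows lack GATA sites. The printed Sftpa1 window, for example, holds gatag, which differs in its last letter and was not searched for. Abca3, Slc34a2 and Lpcat1 held none of these motifs in this window, which says only that these letters are not there.

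Between the labels, the mean differences of the surfactant and lamellar body genes were of both signs. Whether the members differ from one another was not tested. By the mean of the brightest probe set, the collectin genes Sftpa1 and Sftpd read higher in the arrays labelled KO. Abca3, Slc34a2 and Lpcat1 read lower, and Sftpb and Ctsh lay close to the WT level. KO 1 lay among the WT arrays for Sftpa1, and KO 2 did for Slc34a2 and Lpcat1. A dimmer probe set of Abca3 differed by 1.76, the other way. Sftpc read near the WT level in 2 of the arrays labelled KO, at intensities where the signal may be compressed, and far below it in the other. None of the 19 probe sets passed an adjusted p of 0.05 in limma, a linear model fitted over all 45037 probe sets, and neither did any other probe set (0% called). At an unadjusted p under 0.05 in limma, 1 member probe set was higher (Sftpd) and 2 were lower (Slc34a2 and 1 of Lpcat1), against 3.1% of all probe sets (1.35% higher and 1.74% lower). For 4 of the 19 the arrays of the labels did not overlap, 2 above (Sftpd and a dim probe set of Sftpc) and 2 below (both of Abca3), against 8.48% of all probe sets (5.72% above and 2.76% below). Over the brightest probe set of each of the 9 genes the median difference was -0.24 log2, against 0.0025 over all genes. In simulated arrays of this size, 6 of 100 probe sets changed by 1 log2 and 41 of 100 changed by 2 log2 were recovered, so a member that did not pass may still differ.

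**Figure D1:**
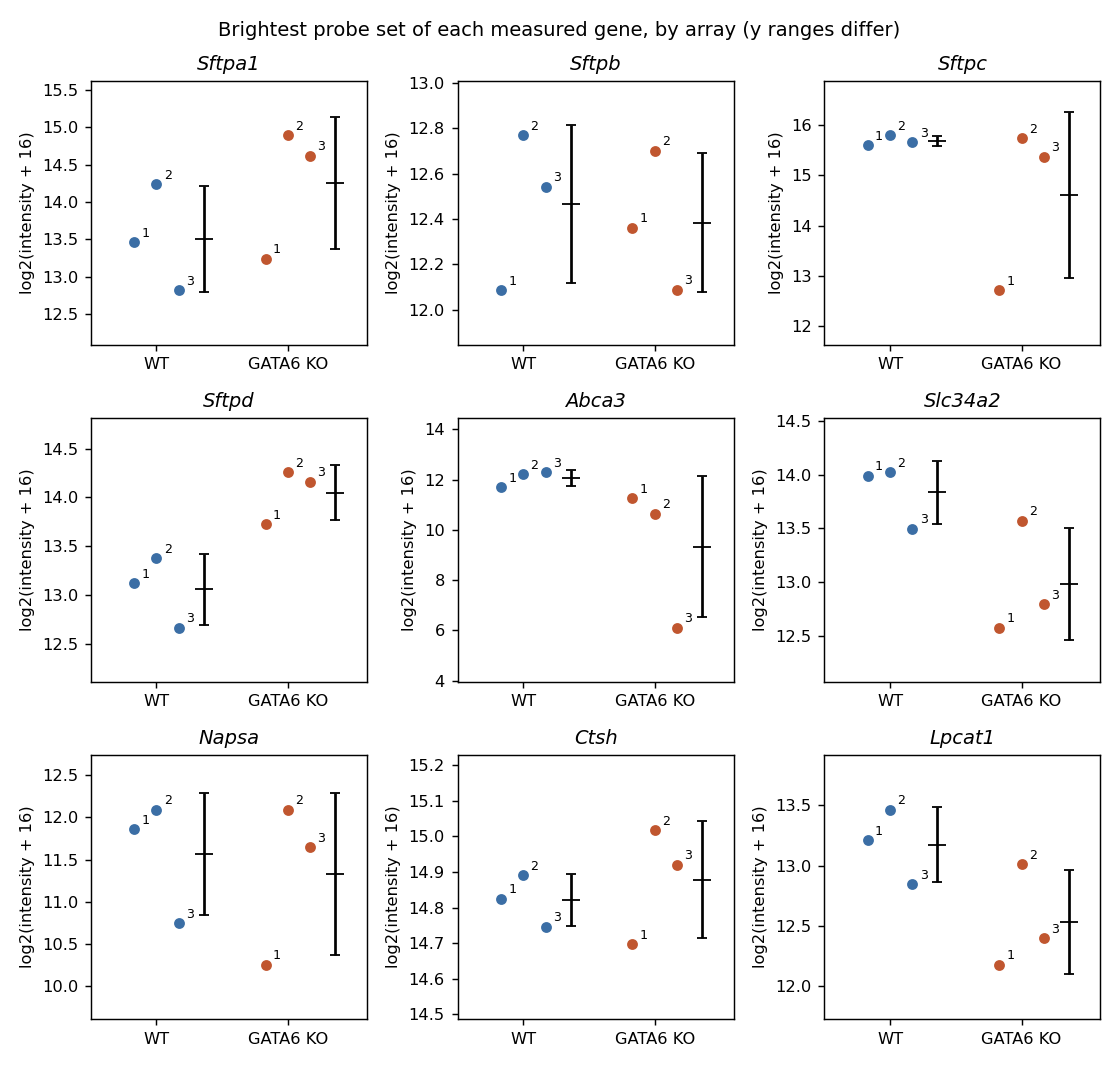
Level of the brightest probe set of each of the 9 measured genes, as log2(intensity + 16), in each array labelled WT (blue) and GATA6 KO (orange), numbered by replicate; black bars are the mean ± SD of 3 arrays and y ranges differ between panels. Sftpd separates the labels, KO 1 is the lowest array for Sftpc at 12.71, and KO 3 is the lowest for Abca3 at 6.12.

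Levels are given as log2 of the intensity plus 16, for the arrays 1, 2 and 3 of each label in that order. Sftpd encodes SP-D, a collectin of airway and alveolar lining fluid. Its probe set (1420378_at) read 13.13, 13.38 and 12.67 in those labelled WT and 13.73, 14.26 and 14.16 in those labelled KO. The labels did not overlap, with KO above. Means of 13.06 ± 0.36 and 14.05 ± 0.28 (SD, n = 3 each) gave a difference of 0.99 log2 (SE 0.23, 95% interval 0.42 to 1.56, limma adjusted p = 0.963), or 1.98-fold. Leaving out any 1 array kept the difference between 0.79 and 1.15. With array weights it was 0.66. With station as a block it was 1.38 (SE 0.26; 1.38, SE 0.27, within station 2). Both of these fits set the 3 arrays labelled KO against WT 3 alone, the lowest WT array for Sftpd, and so are 1 comparison with n = 1 for WT, here and for the genes below.

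Sftpa1 encodes SP-A, the most abundant collectin of surfactant. Its brighter probe set (1422334_a_at) read 13.47, 14.24 and 12.82 under the label WT and 13.24, 14.89 and 14.62 under KO. KO 2 and KO 3 lay above every array labelled WT, and KO 1 lay among them. The difference was 0.74 (SE 0.55, 95% interval -0.61 to 2.09, limma adjusted p = 0.963). The dimmer probe set (1429626_at) read 11.58, 12.47 and 10.68 against 11.14, 13.47 and 13.02, with the arrays in the same order, and differed by 0.97 (SE 0.73). Without KO 1 the difference of the brighter probe set was 1.24, without WT 3 it was 0.40, without KO 2 it was 0.42, and with station as a block and within station 2 it was 1.43. With array weights it turned to -0.07. Sftpa1 and Sftpd lie near each other on chromosome 14, with only Mbl1 between them among protein-coding genes. Mbl1, a mannose-binding collectin, read 4.52 ± 0.18 and 4.64 ± 0.17 (SD, n = 3 each), which is close to the floor.

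Sftpb encodes SP-B, the small hydrophobic protein without which lamellar bodies do not form. Its single probe set read 12.09, 12.77 and 12.54 in the arrays labelled WT and 12.36, 12.70 and 12.09 in those labelled KO. The labels overlapped over their whole range. The difference was -0.08 (SE 0.23), with a 95% interval from -0.65 to 0.49, which leaves room for a change of either sign. It turned to 0.07 without WT 2 and also without KO 3, and was -0.27 without WT 1.

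Sftpc encodes SP-C, a hydrophobic peptide made by type II cells and their progenitors. Its bright probe set (1418639_at) read 15.60, 15.79 and 15.66 in the arrays labelled WT and 12.71, 15.74 and 15.37 in those labelled KO. KO 2 lay within the range of WT, KO 3 below it by a little, and KO 1 lay at -2.97 log2 relative to the WT mean, or 7.84-fold lower. Of 9096 genes above the median level, 15 (0.165%, Sftpc among them) lay as far or farther below the WT mean in KO 1. Between the labels Sftpc differed by -1.08 (SE 0.80, 95% interval -3.04 to 0.89, limma adjusted p = 0.963). Without KO 1 the difference was -0.13 and without KO 2 it was -1.64. The WT intensities of Sftpc, from 49614 to 56822, lay near the highest value on any array (69366). If the signal is compressed there, the drop in KO 1 was larger than the 7.84-fold read here. KO 2 and KO 3 read high as well, at 54629 and 42194, so a smaller drop there could be understated too. The second probe set (1438290_x_at) was dim throughout, at 4.82, 4.83 and 4.84 against 4.88, 5.12 and 5.74. It lay too near the floor to show a decrease, so it carries no information on the low level of KO 1.

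Napsa encodes napsin A, an aspartic protease that trims the SP-B and SP-C precursors. Its brighter probe set (1423590_at) gave 11.86, 12.09 and 10.75 with the label WT and 10.25, 12.09 and 11.65 in those labelled KO. KO 1 was the lowest of the 6 arrays and WT 3 the next. The difference of -0.24 (SE 0.58) changed sign without KO 1 (0.30), without WT 2 (0.03), and with station as a block and within station 2 (0.58). It was -0.86 with array weights, -0.65 without WT 3, -0.61 without KO 2 and -0.39 without KO 3.

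Ctsh encodes cathepsin H, a lysosomal aminopeptidase that acts in the same processing. Its brighter probe set (1418365_at) read 14.83, 14.89 and 14.75 against 14.70, 15.02 and 14.92, a difference of 0.06 (SE 0.12). It varied least among the 9 genes, and its 95% interval ran from -0.23 to 0.34. A second probe set (1443814_x_at) read 13.23, 13.22 and 13.17 against 13.15, 13.65 and 13.66, or 0.28 higher (SE 0.16). There KO 2 and KO 3 lay above every array labelled WT and KO 1 below.

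**Figure D2:**
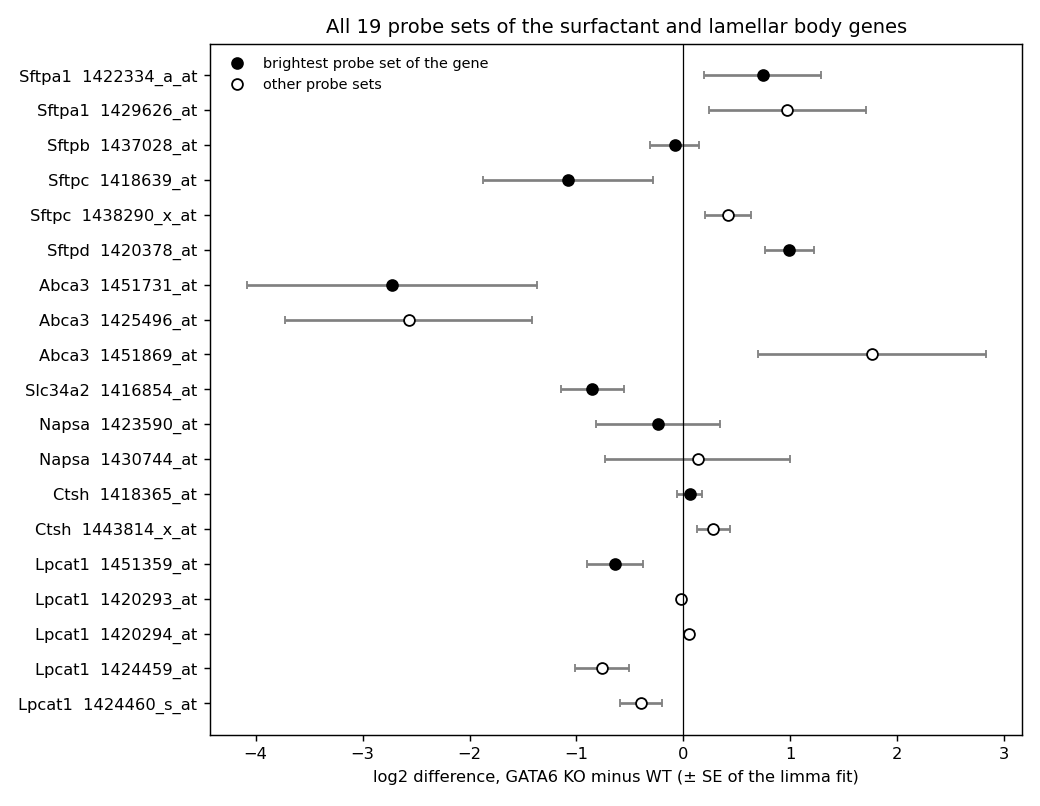
Log2 difference, GATA6 KO minus WT, of all 19 probe sets with the standard error of the limma fit; filled points are the brightest probe set of each gene. The probe sets of Sftpa1 and Sftpd lie above 0, those of Slc34a2 and the bright ones of Lpcat1 below, and the 3 of Abca3 lie at -2.73, -2.57 and 1.76.

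Abca3, the lipid transporter of the lamellar body membrane, was the member with the widest difference. Its brightest probe set (1451731_at) read 11.70, 12.21 and 12.29 in the arrays labelled WT and 11.26, 10.64 and 6.12 in those labelled KO. Each array labelled KO was under the whole range of WT, and KO 3 lay far below the other two. In linear intensity, KO 3 read 53.5 where the arrays labelled WT read 3309 to 4977. That is -5.95 log2 relative to the WT mean, and of 9096 genes above the median level Abca3 was the lowest against the WT mean in KO 3 (1 gene as low, Abca3 itself). The difference between the labels was -2.73 (SE 1.36, 95% interval -6.07 to 0.62, limma adjusted p = 0.963). Without KO 3 it was -1.12, without KO 1 -3.69 and with array weights -1.78.

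A second Abca3 probe set (1425496_at) followed the first, at 10.04, 10.75 and 10.77 against 9.67, 8.93 and 5.25. The third (1451869_at) went the other way, at 7.52, 4.88 and 5.10 against 5.97, 7.63 and 9.20, and differed by 1.76 (SE 1.06). The gap between the first and the third was 4.18, 7.33 and 7.19 log2 in the arrays labelled WT and 5.29, 3.01 and -3.08 in those labelled KO. It was smallest, and negative, in KO 3. Over the same arrays, bright probe sets that name no gene read -0.87, -1.98 and -1.88 log2 relative to bright named ones under WT, and -1.97, -1.19 and -0.66 under KO. WT 1, KO 2 and KO 3 were the high arrays for this measure and for the level of the third probe set. With that measure as a covariate the third probe set differed by 1.03 (SE 0.16, limma adjusted p = 0.671) and the brightest by -2.06 (SE 1.09, limma adjusted p = 0.786). The dimmer probe set of Napsa (1430744_at) was high in the same 3 arrays, at 7.22, 5.79 and 4.80 against 4.61, 6.62 and 6.99.

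**Figure D3:**
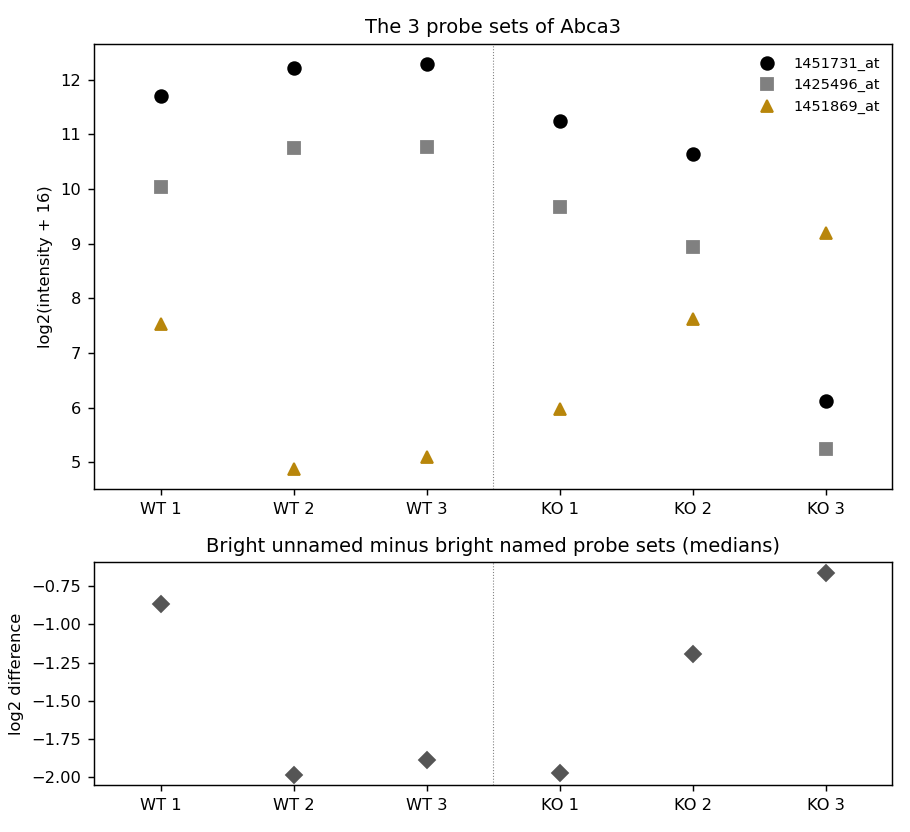
Upper panel: level of the 3 Abca3 probe sets in each of the 6 arrays, as log2(intensity + 16). Lower panel: the same arrays' bright probe sets without a gene name relative to bright probe sets with 1 (difference of medians, log2). The circles and squares drop to 6.12 and 5.25 in KO 3, where the triangles reach 9.20.

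Genes on both sides of Abca3 on chromosome 17 were set beside it, a choice made after its values were seen. On one side the nearest measured genes, Ccnf, Tedc2, Ntn3 and Tbc1d24, differed by -0.33 (SE 0.30), -0.10 (SE 0.15), -0.00045 (SE 0.002) and 0.03 (SE 0.16). Ntn3 was at the floor in all arrays (4.25 ± 0.002 and 4.24 ± 0.003, SD, n = 3 each), so its value measures no change or lack of one. On the other side came Rnps1, at 0.22 (SE 0.20), then Eci1, an enzyme of fatty acid oxidation. Eci1 read 10.18, 10.18 and 10.04 against 11.52, 11.85 and 12.48. After it came Dnase1l2, an endonuclease gene, at 4.70, 4.99 and 5.50 against 9.49, 8.79 and 10.03. For both genes KO 3 was the highest array, where Abca3 was at its lowest, and neither passed over all probe sets (limma adjusted p = 0.925 and 0.516). The next genes, E4f1 and Pgp, differed by 0.10 (SE 0.24) and 0.08 (SE 0.15).

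**Figure D4:**
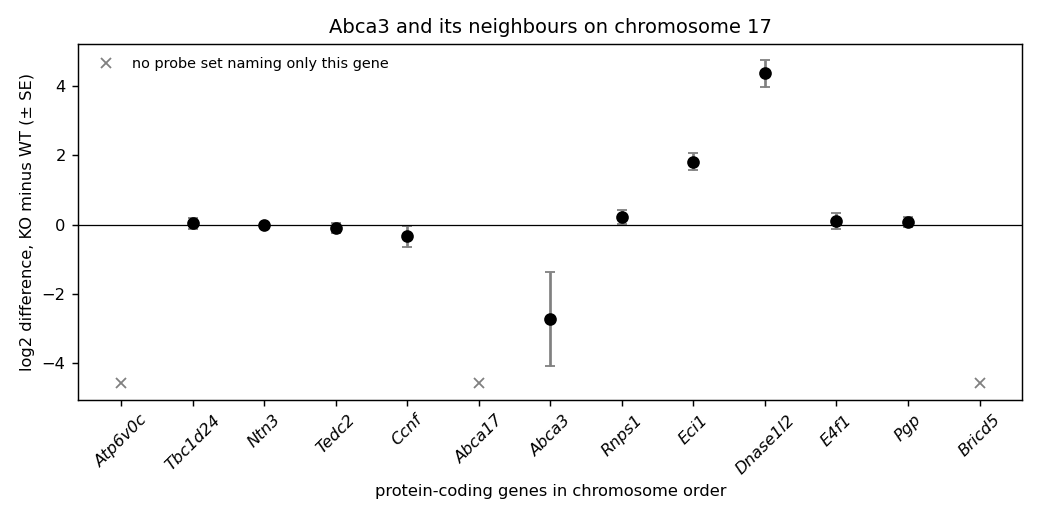
Log2 difference, GATA6 KO minus WT, with the standard error of the limma fit, for the brightest probe set of Abca3 and of the protein-coding genes around it in chromosome order; crosses at the bottom mark genes with no value. Abca3 lies at -2.73 and Eci1 and Dnase1l2 at 1.82 and 4.38, while the other measured genes lie between -0.33 and 0.22, with Ntn3 at the floor.

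Lpcat1 encodes the acyltransferase that makes the saturated phosphatidylcholine of surfactant. Its brightest probe set (1451359_at) read 13.21, 13.46 and 12.85 in the arrays labelled WT and 12.18, 13.01 and 12.40 in those labelled KO. KO 1 and KO 3 lay below every array labelled WT, and KO 2 among them. The difference was -0.64 (SE 0.26, 95% interval -1.29 to 0.01, limma adjusted p = 0.963). The probe set 1424459_at differed by -0.77 (SE 0.25) and 1424460_s_at by -0.39 (SE 0.20), with KO 1 the lowest array in both. The other two (1420293_at and 1420294_at) stayed near the floor in all arrays, between 4.41 and 4.72, and carry no information on the gene. With station as a block the brightest differed by -0.32 (SE 0.35).

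Slc34a2 encodes the sodium-phosphate cotransporter of the type II cell surface, which takes back phosphate released from surfactant phospholipid. Its probe set (1416854_at) gave 13.99, 14.02 and 13.50 with the label WT and 12.58, 13.57 and 12.80 in those labelled KO. KO 2 lay just inside the range of WT and the other two below it. The difference was -0.85 (SE 0.29, 95% interval -1.58 to -0.13, limma adjusted p = 0.963), or 1.81-fold lower. Without KO 1 it was -0.65, without KO 2 -1.15, and with station as a block and within station 2 -0.52.

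The arrays labelled KO thus differed among themselves in which member was low. KO 1 was the lowest of the 6 arrays for 5 of the 9 genes (Sftpc, Slc34a2, Napsa, Ctsh and Lpcat1). For Ctsh it lay just below WT 3 (14.70 against 14.75). WT 3 was lowest for both collectins, KO 3 for Abca3 and WT 1, level with KO 3, for Sftpb. How often KO 1 was lowest over all genes was not counted. Over the 9 genes the median against the WT mean was -0.81 in KO 1, 0.20 in KO 2 and -0.32 in KO 3. All genes had medians of 0.007, 0.007 and -0.01 in the same arrays. Slc34a2, Lpcat1 and Napsa in KO 1 lay -1.26, -0.99 and -1.31 from the WT mean, where 1.18%, 1.77% and 1.04% of the 9096 genes above the median level lay as far down. KO 2 exceeded the WT mean for 6 of the 9 genes, and for Abca3 it was -1.43 from that mean. Of the 9096 genes above the median level, 11 (0.12%, Abca3 among them) lay as far down in KO 2.

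Other genes of type II cells showed a like order of arrays. Of 16 listed, 15 were measured, 10 reading lower and 5 higher with the label KO (median -0.29), and none passed the adjusted p. Among all 18193 genes 7569 read lower and 10624 higher, and among the 9096 above the median level 4999 lower and 4097 higher. These are the background for the counts of the lists below too. In 5 of the 15 every KO level lay under every WT level, and in 2 above. Over all genes 3.81% lay below and 5.89% above. Among the 9096 above the median level, 563 lay below and 473 above. The 2 above were Pon3 and Pgc, and Pgc stayed at the floor in all arrays, so its order carries no information. Muc1, a membrane mucin, differed by -1.07 (SE 0.19) and Fabp5, a fatty acid binding protein, by -1.53 (SE 0.37). Cxcl15, the lung chemokine lungkine, differed by -0.64 (SE 0.20) and Pon3, a lactonase, by 0.97 (SE 0.28). The median of the list against the WT mean was -0.91 in KO 1, 0.01 in KO 2 and -0.24 in KO 3.

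Markers of type I cells, which line the alveoli beside type II cells, were lower for 8 of 8 genes (median -1.23). Their medians were -2.36 in KO 1, -0.04 in KO 2 and -1.30 in KO 3, the same order of arrays as for Slc34a2 and Lpcat1. The summed intensity of these 8 genes ran from 78245 to 102807 in the arrays labelled WT and from 49243 to 85985 in those labelled KO. Pan-epithelial markers (Cdh1, Epcam, Krt8, Krt18 and Krt19) had medians of 0.08, 0.09 and 0.05 in KO 1, KO 2 and KO 3, and summed to 25704 to 28717 against 26772 to 30996. For club cells 3 of 4 markers were higher (median 0.32), with sums of 46576 to 76370 against 62025 to 66460. Ciliated cell markers were higher for 4 of 5 (median 0.36; sums 1066 to 1879 against 1668 to 2339). The 4 endothelial markers all read lower (median -0.75; sums 2439 to 4722 against 1858 to 3233), and the 4 mesenchymal ones too (median -0.20; sums 36287 to 41010 against 30439 to 43568). Macrophage markers were split, 3 of 5 higher (median 0.007; sums 1443 to 2243 against 1598 to 2101), with Marco near the floor at 4.47 ± 0.01 and 4.50 ± 0.03 (SD, n = 3 each). Of 5 erythroid genes 2 had values, Alas2 at -0.60 (SE 0.44) and Hba-a1 near the floor (sums 1423 to 3659 against 899 to 1798). The part of any of these cell types in the levels of the surfactant genes was not tested.

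**Figure D5:**
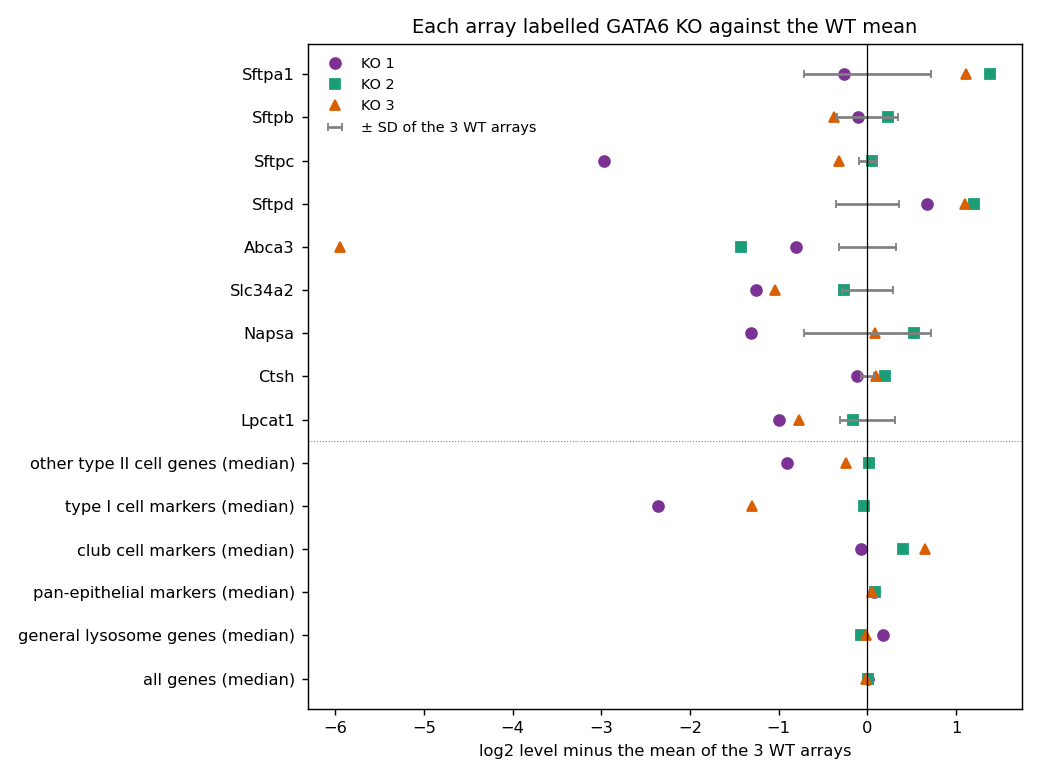
Log2 level of each array labelled KO minus the mean of the 3 labelled WT, for the 9 genes (upper rows, grey bars ± SD of the 3 WT arrays) and as medians of 5 gene lists and of all genes (lower rows). KO 1 lies lowest for Sftpc at -2.97 and for type I cell markers at -2.36, and KO 3 lowest for Abca3 at -5.95.

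The rest of the surfactant pathway was given by lists. Of the enzymes that make and remodel phosphatidylcholine 11 of 12 were measured, 5 higher and 6 lower, with a median of -0.01 and none past the adjusted p. Pcyt1a, the rate-limiting enzyme of the route, read 9.75 ± 0.25 and 9.50 ± 0.43 (SD, n = 3 each; difference -0.25, SE 0.25). Of the other Lpcat genes, Lpcat2 and Lpcat3 differed by 0.43 (SE 0.34) and -0.11 (SE 0.25), and Lpcat4 stayed near the floor at 4.29 in both.

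Of the genes for lamellar body biogenesis, secretion and surfactant clearance 13 of 14 were measured, 8 higher and 5 lower (median 0.02), and none passed the adjusted p. Rab38, a small GTPase of lamellar body biogenesis, read 9.38, 9.07 and 9.07 against 9.79, 9.70 and 9.55, so that the labels did not overlap. Its difference was 0.51 (SE 0.13). Rab27a, a GTPase of regulated secretion, read 9.81, 10.40 and 10.12 against 8.97, 9.57 and 8.68, also without overlap, and differed by -1.04 (SE 0.27). Nedd4l, a ubiquitin ligase that acts on SP-C trafficking and sodium channels, differed by -0.36 (SE 0.11), and Csf2rb, a subunit of the GM-CSF receptor needed for surfactant clearance, by -0.39 (SE 0.28).

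All 14 transcription factors listed for surfactant genes were measured, 4 higher and 10 lower (median -0.19), and none passed the adjusted p. Of the 9096 genes above the median level, 4999 read lower and 4097 higher. Nkx2-1 was dim at 5.88 ± 0.74 and 5.52 ± 0.53 (SD, n = 3 each), and its level here carries little information. Foxa2, a forkhead factor of lung epithelium, differed by -0.0019 (SE 0.20) and Cebpa by -0.28 (SE 0.18). Cebpd, which responds to glucocorticoid, differed by -0.28 (SE 0.12) and Srebf1, a regulator of lipid synthesis, by -0.55 (SE 0.28). Gata6 differed by 0.79 (SE 0.25).

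General lysosome genes lay near the WT level, with 9 of 12 measured, 5 higher and 4 lower, and a median of 0.003. Lamp1 and Lamp2, the widely expressed relatives of Lamp3, differed by -0.15 (SE 0.11) and 0.17 (SE 0.13). Npc2, a cholesterol carrier, differed by 0.12 (SE 0.12) and Ctsl, a cathepsin, by -0.09 (SE 0.15). Relatives of the member genes, 22 in all, were listed by family with no sequence likeness computed. Some are also in the lists above, and Abca17, beside Abca3 on chromosome 17, had no value. Of the 22, 11 read higher and 11 lower (median -0.002). For 8 of the 22 the mean lay below 5.30 log2, the median of all probe sets, where the sign carries no information, and of the other 14 there were 6 higher and 8 lower (median -0.05). Among them the collectins Colec11 and Colec10 differed by 0.90 (SE 0.46) and -0.63 (SE 0.42), the BRICHOS gene Itm2b by 0.20 (SE 0.13) and the lipid transporter Abca1 by 0.20 (SE 0.13). None of the 22 had an unadjusted p under 0.05 in limma, where 4.3% of all genes did.

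For each member the genes with the nearest pattern over the 6 arrays were found among 9096 genes above the median level, by the root mean square difference of profiles centred on their own means. Nearest to Sftpd were Vnn3 (0.17 log2), Pon3 (0.19) and Cd36 (0.19), where the profile of Sftpd itself had a root mean square of 0.56. Cd36, a fatty acid transporter, read 12.56, 12.77 and 12.52 against 13.27, 13.50 and 13.53. Slc34a2 lay nearest to Slc39a8 (0.113), Lpcat1 (0.135) and Ifit2 (0.136), with a root mean square of its own of 0.55. Lpcat1 was thus the only other member that stood among the nearest 3 of a member. Nearest to Sftpc were Igf2r (0.33), Pnoc (0.34) and Tspan11 (0.39), against 1.10 for Sftpc itself. Abca3 had no close match, with Ear3 (0.86), Cpm (1.25) and Dusp7 (1.39) nearest, against 2.13 for its own profile.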

How the data were processed

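Intensities of 45101 probe sets were taken from the deposited value table. Per the submitters' processing notes GCRMA and MAS5 were used, with no version, role or order given. The deposited intensity values are linear, with a lowest value of 2.04 to 2.07 and a median of 20.6 to 24.1 per array, and were taken as already normalised between arrays. Experiment files, deposited as other text settings with no expression values, gave station and scan order.

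The 64 controls were left out. Of 45037 probe sets, 34945 named 1 gene, 932 several and 9160 none here; 34741 were matched through a current gene ID. Values were transformed to log2(intensity + 16), with no filter. The labels were compared (KO minus WT) in R 4.3.3 by limma 3.58.1 (intensity trend, two-sided), Benjamini-Hochberg over 45037 probe sets, threshold 0.05. Each gene of a list was represented by its brightest probe set over all 6 arrays. Errors of differences are standard errors of that fit, and errors of means are SD.

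In each list up to 4 genes with the smallest p were named, in the list of transcription factors also Nkx2-1, Foxa2 and Cebpa; the 3 nearest profiles are given for the members discussed. The members and lists were chosen with earlier results of these data known. Residuals of arrays with the same number correlated at -0.757, 0.0199 and -0.483, so the numbers were not taken as pairs. The number of arrays limits the precision. The fit was tested on simulated data of 45037 probe sets, where 1 unchanged probe set was called.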

Additional observations from a re-analysis of the deposited data

How the results depend on the processing

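No member probe set passed the adjusted p under any of the 19 alternatives in which they were counted. The replicate block was among them (0 calls with the block, 0 without). It holds 1 array of each label per replicate number, so it cannot change a difference (Sftpd 0.99 with and without it). Over all probe sets 1 was called with median centring, 1 with 1 probe set per gene, and 37 with station as a block, 36 of them lower, against 0 in the fit as reported and 0 in each fit that left out 1 array. In the block on station the arm labelled WT rests on WT 3. The median of the 9 genes (-0.24) was -0.86 with array weights and ran from -0.65 (without WT 3) to 0.0281 (without WT 2) when 1 array was left out. Abca3, Lpcat1, Sftpc, Sftpd and Slc34a2 kept their sign in all 20 alternatives. Several of these could not turn a sign, namely the replicate block and the fits that changed only the rows or the variance estimate. The fits with the station block and within station 2 are 1 comparison. The signs of 4 members turned: Ctsh with array weights (-0.0306) and without KO 2 (-0.0118, the lowest without 1 array, to 0.148), Sftpa1 with array weights (-0.0737), Sftpb with the composition covariate (0.0211), without WT 2 (0.0696) and without KO 3 (0.0656; lowest -0.272 without WT 1), and Napsa with the station block and within station 2 (0.584 in both), without WT 2 (0.0281) and without KO 1 (0.303; lowest -0.645). The cause was not tested. Averaging all probe sets of a gene gave -1.18 for Abca3 and -0.33 for Sftpc, since 1 probe set of each differs in sign from the brightest. For 3 of the 19 probe sets (1438290_x_at of Sftpc, 1420293_at and 1420294_at of Lpcat1) the mean level lay below 5.30 log2, the median of all probe sets, too near the floor to show a decrease.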
